A study of Mus musculus with 12 samples.

Results

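The amyloid precursor family and its secretases were followed as 9 genes in astrocytes of Cd38+/+, Cd38+/- and Cd38-/- mice. They were taken by gene symbol, by a rule that sets no threshold on a measured value, and all 9 were found among the 20614 genes of the table and passed the filter on low expression in every comparison. The genes are App, Aplp1 and Aplp2, which encode the precursor proteins, Bace1 (beta-secretase), Adam10 (the main alpha-secretase of the brain), and Psen2, Ncstn, Aph1a and Psenen, which encode subunits of gamma-secretase. The mice were males of 12 to 14 months, bred on the C57BL/6J strain, and RNA of their midbrain astrocytes gave 3 Cd38+/+ libraries, 3 Cd38+/- libraries and 6 Cd38-/- libraries. The knockout allele disrupts Cd38, an ectoenzyme that consumes NAD, in every cell of the body, so these comparisons are not limited to loss in astrocytes, and Cd38+/- mice carry it on 1 chromosome. Per the study's methods, the dissected tissue also held striatum and thalamus, endothelial cells, myelin and microglia were removed with beads, and astrocytes were then captured with beads against ACSA-2, a surface antigen encoded by Atp1b2.

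An amyloid precursor protein spans the membrane once and is cut outside the cell by an alpha-secretase or a beta-secretase. The stub that stays in the membrane is then cut by gamma-secretase, a complex of a presenilin, nicastrin, APH-1 and PEN-2, which frees a short extracellular peptide and an intracellular tail. Only the beta-secretase path through App gives the amyloid peptide that deposits in Alzheimer's disease; the same complex also cuts Notch receptors and many other membrane proteins. Astrocytes express the precursors and secretases and also take up and degrade the peptide.

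The intracellular tails freed by gamma-secretase carry a tyrosine motif that adaptor and sorting proteins bind, and they are shown because the precursor genes share this stretch and several genes tested below act on it. Each line gives 93 coding bases near the end of the coding sequence, 5′ to 3′ on the transcript strand, from GENCODE vM21 transcripts on GRCm38, with the 18 bases that encode the motif in capitals.
App: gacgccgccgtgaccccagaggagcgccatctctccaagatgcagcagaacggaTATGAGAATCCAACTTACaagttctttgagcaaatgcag
Aplp1: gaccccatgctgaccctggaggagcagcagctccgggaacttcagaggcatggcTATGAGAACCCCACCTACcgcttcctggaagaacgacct
Aplp2: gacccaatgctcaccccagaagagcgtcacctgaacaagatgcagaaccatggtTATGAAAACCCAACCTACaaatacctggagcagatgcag
App and Aplp2 were the closest pair over this stretch, with 67 of 93 bases identical (72.0%). Aplp1 and Aplp2 shared 60 bases (64.5%), and App and Aplp1 shared 56 (60.2%). On GRCm38, App lies on chromosome 16 from 84949685 to 85173766, Aplp1 on chromosome 7 from 30434982 to 30445535 and Aplp2 on chromosome 9 from 31149557 to 31211815, all on the minus strand. None of the 9 genes lies on chromosome 5, which carries Cd38.

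The values are in TPM, a measure of expression per transcript length with the same sum in every library, which keeps no read number. Cd38 checked the genotypes. It was at 149, 120.0 and 105 TPM in Cd38+/+, between 90.4 and 90.8 TPM in Cd38+/- and between 8.54 and 21.9 TPM in Cd38-/- libraries. Libraries of the wild type stood apart: 13160 to 13516 genes were above 0 in them, against 16160 to 16327 in Cd38+/- and 15920 to 17906 in Cd38-/- libraries, and their genes varied more from library to library (median SD on the log2 scale 0.48, against 0.20 in Cd38+/- and 0.23 in Cd38-/-). Astrocyte markers summed to 11766 to 17015 TPM in Cd38+/+, 17557 to 19642 TPM in Cd38+/- and 13260 to 17052 TPM in Cd38-/- libraries, with all 12 markers above 0 in all libraries. The 13 neuron markers summed to 68.7 to 84.5 TPM in Cd38+/+, 45.7 to 79.2 TPM in Cd38+/- and 57.0 to 146 TPM in Cd38-/- libraries. In the same order, the 9 microglia markers summed to 107 to 119 TPM, 132 to 160.5 TPM and 116 to 165 TPM, without overlap between Cd38+/+ and Cd38+/-. Th, Tmem119 and Cx3cr1 were at 0 in all 3 Cd38+/+ libraries. Markers of any list that were at 0 were so only in Cd38+/+ libraries, which had fewer genes above 0. The 10 oligodendrocyte markers, with Mog at 0 in all 3 Cd38+/+ libraries, summed to 1314 to 7200 TPM in Cd38+/+, 3120 to 11071 TPM in Cd38+/- and 3200 to 17842 TPM in Cd38-/- libraries. Other lists also differed between genotypes, with overlap in part. The 3 erythroid markers summed to 4306 to 18494 TPM in Cd38+/+, 1726 to 3530 TPM in Cd38+/- and 2106 to 8376 TPM in Cd38-/- libraries. In the same order, the 5 choroid plexus markers summed to 45.6 to 305 TPM, 197 to 7293 TPM and 221 to 1935 TPM. The 4 markers of oligodendrocyte precursors summed to 193 to 279 TPM, 179.99 to 207 TPM and 121 to 199.9 TPM. The 4 ependymal markers summed to 2513 to 4761 TPM, 2571 to 3009 TPM and 3236 to 5070 TPM, without overlap between the mutant genotypes. Sums of the endothelial markers and of the mural and fibroblast markers overlapped in all pairs of genotypes. Kl was at 0 in all 3 Cd38+/+ libraries and Ttr and Kcnj13 in 2 of them. The part of these cells in the results was not tested.

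All 9 genes were expressed in every library. Averaged over the 12 libraries, the precursors Aplp2 (515 TPM) and Aplp1 (487 TPM) were highest, followed by Psenen (271 TPM), App (207 TPM), Ncstn (87.3 TPM), Aph1a (66.3 TPM), Adam10 (38.4 TPM), Psen2 (27.3 TPM) and Bace1 (21.6 TPM). Among all 20614 genes of the table, the precursors ranked at the 94.0th percentile or above in every library, whereas Bace1 ranked between the 58.5th and the 71.3rd. Only 11373 of these genes had a mean above 5 TPM over all libraries, so ranks among expressed genes alone would be lower. Neighbours in this order had ranges over libraries that met, apart from App and Ncstn, whose lowest and highest values were 154 TPM and 123 TPM.

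Within a library the order was steadier. Aplp1 and Aplp2 were each above App in 12 of 12 libraries. Aplp2 was above Aplp1 in 0 of 3 Cd38+/+, 2 of 3 Cd38+/- and 5 of 6 Cd38-/- libraries. Adam10 was above Bace1 in 11 of 12 libraries, the exception being Cd38+/+ replicate 3. Among the gamma-secretase subunits, Psenen was above Ncstn and Aph1a was above Psen2 in 12 of 12 libraries, and Ncstn was above Aph1a in all libraries but Cd38+/+ replicate 2. App made up 17.4% to 20.1% of the TPM of the 3 precursor genes in Cd38+/+, 12.3% to 21.0% in Cd38+/- and 14.4% to 20.7% in Cd38-/- libraries. Psenen made up 54.7% to 73.9% of the TPM of the 4 gamma-secretase genes in Cd38+/+, 47.6% to 59.7% in Cd38+/- and 50.7% to 64.6% in Cd38-/- libraries.

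**Figure D1:**
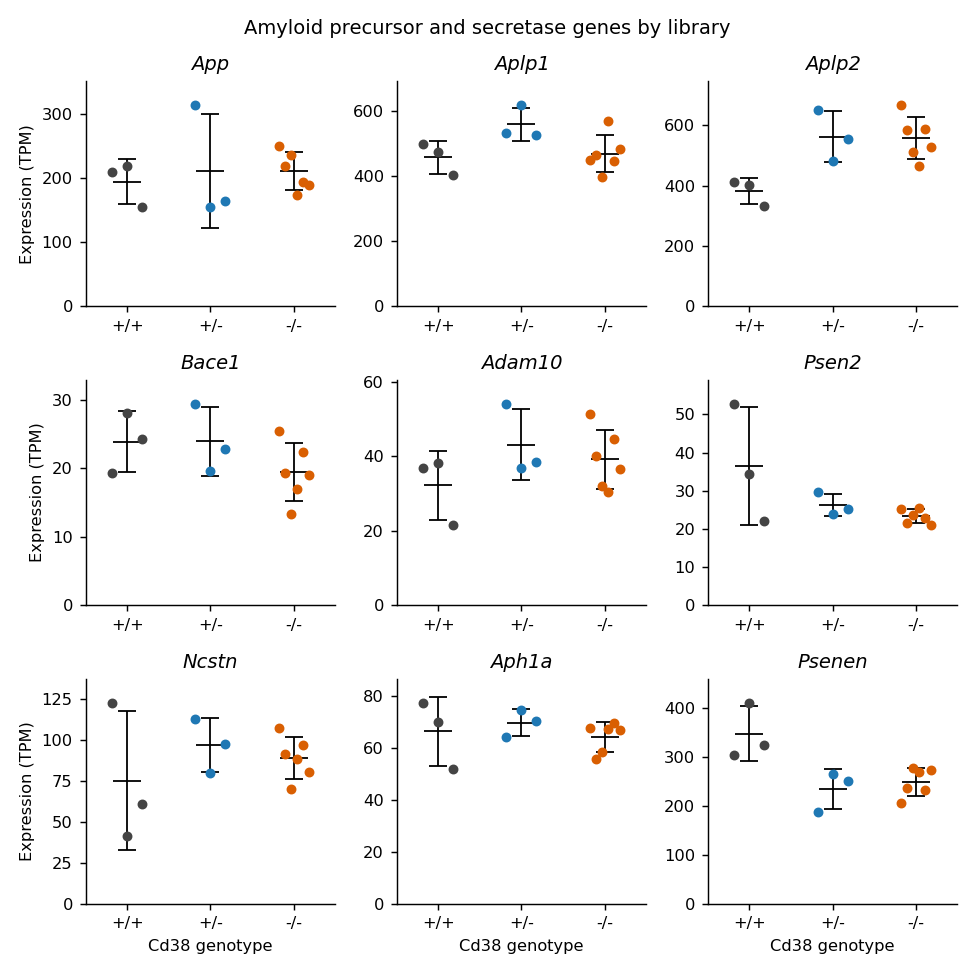
Expression in TPM (vertical axes, starting at 0) of each of the 9 genes against Cd38 genotype. Each point is 1 library, ordered by replicate number within its genotype, and the bars give the mean and SD (n = 3, 3 and 6). All Cd38-/- points of Aplp2 lie above the Cd38+/+ points and all Cd38-/- points of Psenen lie below them, and the Cd38+/+ points of Ncstn and Psen2 are the most widely spread of their panels.

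Complete loss of Cd38 was examined in Cd38-/- against Cd38+/+. The Cd38+/+ libraries also stood apart from both mutant genotypes in genes above 0 and in spread. An effect of genotype and of this library difference cannot be told apart. Aplp2 was higher and Psenen lower in Cd38-/- astrocytes, and App, Aplp1, Bace1, Adam10, Psen2, Ncstn and Aph1a were not called. A gene was called where the Storey q of a limma fit on log2(TPM + 1), over all 11722 genes tested, was under 0.05 and the change at least 1.2-fold; 2 of the 9 genes met this, and so did 8.28% of all genes tested. At an unadjusted p under 0.05 there were 3 of the 9 genes, against 23.6% of all genes tested, and there was no overlap between the genotypes in 2 of the 9 genes, against 11.8% of all genes tested. The median log2 fold change was 0.03 over the 9 genes and 0.15 over all genes tested. Beside limma, a two-sided exact permutation test was run on each gene, in which 6 libraries against 3 cannot give a p below 0.0119. In such sorted bulk samples, fewer cells of a type and less RNA per cell cannot be told apart.

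Among the precursors, Aplp2 was at 413, 402 and 331 TPM in the Cd38+/+ libraries and at 466 (lowest), 557 (median) and 667 TPM (highest) in the Cd38-/- libraries. The lowest Cd38-/- library was thus above the highest Cd38+/+ library. Aplp2 rose by 0.54 on the log2 scale, a 1.46-fold change (standard error 0.13, 95% interval 0.26 to 0.83, limma q = 0.028; exact permutation p = 0.0119). The call was lost without Cd38-/- replicate 1, 2, 5 or 6 (q between 0.0568 and 0.0734), where the log2 fold change lay between 0.49 and 0.56. Over all genes, 112, 74, 93 and 154 were called in those fits, against 970 with no library left out. With the length and GC trend of each library taken out, the log2 fold change was 0.22 (q = 0.116). The call was also lost with library quality weights (q = 0.381) and without the eBayes trend (q = 0.0532).

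App, the source of the amyloid peptide, was at 209.9, 219 and 154 TPM in Cd38+/+ and at 174 (lowest), 207 (median) and 251 TPM (highest) in Cd38-/- libraries. The genotypes overlapped over most of this range. Its log2 fold change was 0.12 (95% interval -0.21 to 0.46, limma q = 0.371), with a value of -0.22 after the length and GC trend was removed. Aplp1 was at 496, 472 and 401 TPM in Cd38+/+ and at 396 (lowest), 455 (median) and 568 TPM (highest) in Cd38-/- libraries, again with overlap (log2 fold change 0.03, 95% interval -0.24 to 0.31, limma q = 0.513).

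The secretases that make the first cut were not called. Bace1, which starts the amyloid path, was at 19.2, 28.1 and 24.3 TPM in Cd38+/+ and at 13.3 (lowest), 19.2 (median) and 25.4 TPM (highest) in Cd38-/- libraries, and the genotypes overlapped (log2 fold change -0.30, 95% interval -0.82 to 0.23, limma q = 0.269). With the length and GC trend removed the value was -0.65 and passed the test (q = 0.0288). Adam10, which cuts App within the amyloid peptide sequence, was at 36.9, 38.1 and 21.4 TPM in Cd38+/+ and at 30.3 (lowest), 38.4 (median) and 51.4 TPM (highest) in Cd38-/- libraries. The low Cd38+/+ library was replicate 3, and the other Cd38+/+ libraries lay within the Cd38-/- range (log2 fold change 0.30, 95% interval -0.21 to 0.81, limma q = 0.261). Bace1 lies on chromosome 9 from 45838580 to 45864399 and shares 975 of its 6348 exon bases with Rnf214 on the opposite strand; Adam10 lies on the same chromosome from 70678997 to 70780229.

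Psenen encodes PEN-2, the small subunit needed for presenilin to mature within the complex. It was at 305, 412 and 326 TPM in the Cd38+/+ libraries and at 206 (lowest), 254 (median) and 278 TPM (highest) in the Cd38-/- libraries. Every Cd38-/- library was below every Cd38+/+ library. Psenen fell by 0.47 on the log2 scale, to 0.722 of the Cd38+/+ level (standard error 0.14, 95% interval -0.77 to -0.17, limma q = 0.0429; exact permutation p = 0.0119). The call was lost without Cd38+/+ replicate 2, where the log2 fold change was -0.34 (q = 0.072), and without Cd38-/- replicate 1, 2, 3, 5 or 6 (q between 0.0502 and 0.099). It was also lost with Benjamini-Hochberg adjustment (adjusted p = 0.0758), without the eBayes trend (q = 0.0771) and with library quality weights (q = 0.443). Psenen lies on chromosome 7 from 30561863 to 30563627, its longest transcript has 708 bases, and 119 of its 1275 exon bases are shared with U2af1l4 on the opposite strand. The kit does not mark strand, so reads over the shared bases cannot be told apart; U2af1l4 was at 143 ± 31.7 TPM (SD, n = 3) in Cd38+/+ and 122 ± 5.95 TPM (SD, n = 6) in Cd38-/- libraries (log2 fold change -0.21, limma q = 0.212).

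Psen2, a presenilin and thus a catalytic subunit, was at 52.8, 34.4 and 22.0 TPM in Cd38+/+ and at 20.9 (lowest), 23.2 (median) and 25.6 TPM (highest) in Cd38-/- libraries. The upper Cd38+/+ libraries lay above all Cd38-/- libraries and replicate 3 lay within them. The log2 fold change of Psen2 was -0.54 (95% interval -1.08 to -0.01), with an unadjusted limma p of 0.0464 that did not pass over all genes (q = 0.115). It was -0.85 without Cd38+/+ replicate 3 (q = 0.0102) and -0.24 without Cd38+/+ replicate 1.

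Ncstn, the nicastrin subunit that receives the substrate, was at 123, 41.2 and 61.0 TPM in Cd38+/+ and at 69.7 (lowest), 89.7 (median) and 107 TPM (highest) in Cd38-/- libraries. The Cd38+/+ libraries thus lay on both sides of all Cd38-/- libraries, with a ratio of highest to lowest of 2.97 against 1.53. The log2 fold change was 0.37 (95% interval -0.21 to 0.96, limma q = 0.239), and 0.80 without Cd38+/+ replicate 1 (q = 0.0181). Aph1a, the scaffold subunit, was at 77.6, 70.1 and 51.9 TPM in Cd38+/+ and at 55.8 (lowest), 67.1 (median) and 69.8 TPM (highest) in Cd38-/- libraries, within the Cd38+/+ range (log2 fold change -0.03, 95% interval -0.38 to 0.31, limma q = 0.525). Psen2 and Ncstn lie on chromosome 1, from 180227004 to 180263438 and from 172066013 to 172082795, and Aph1a on chromosome 3 from 95893969 to 95898288. Ncstn shares 195 of 3975 exon bases with Copa and Aph1a shares 445 of 3450 with Car14, both on the opposite strand.

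**Figure D2:**
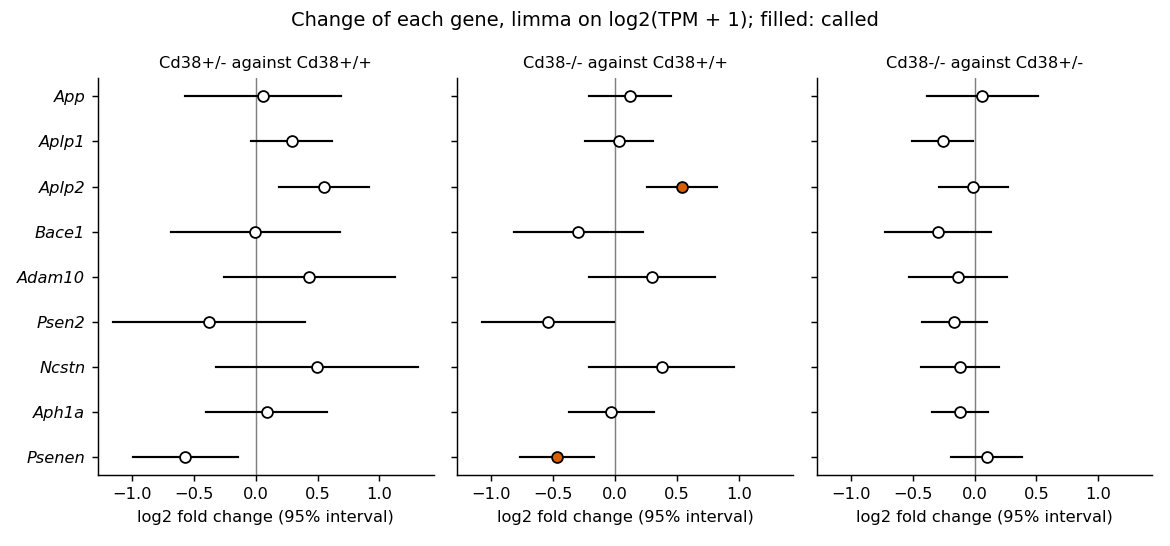
Log2 fold change (horizontal axes) of each of the 9 genes in the 3 comparisons of genotypes, from limma on log2(TPM + 1). Circles give the estimate and lines its 95% interval, and filled circles were called. Only Aplp2 (0.54) and Psenen (-0.47) in Cd38-/- against Cd38+/+ are filled, and the intervals are widest for Ncstn and Psen2 where Cd38+/+ libraries enter.

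**Figure D3:**
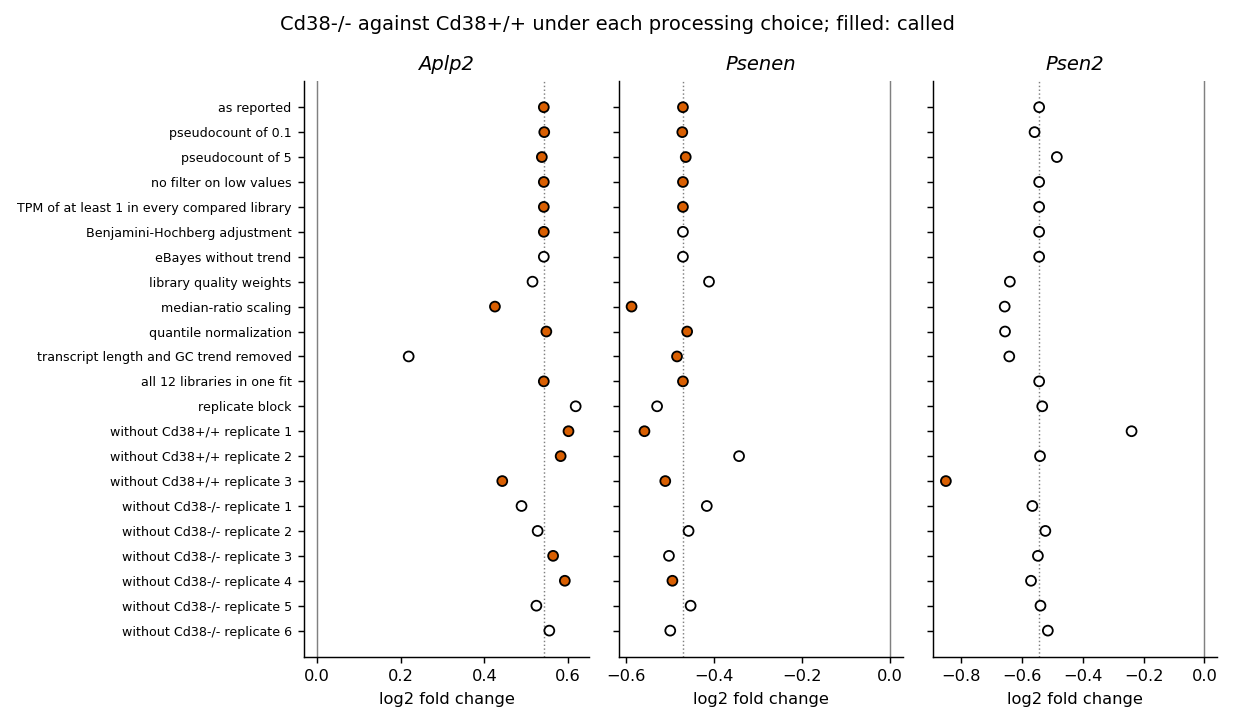
Log2 fold change (horizontal axes) of Aplp2, Psenen and Psen2 in Cd38-/- against Cd38+/+ as reported and under each of 21 alternatives, named on the vertical axis. Filled circles were called. The direction of the 3 genes is the same in all alternatives, while Aplp2 is not called in 8 of them, Psenen is not called in 10 and Psen2 is called in 1.

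Loss of 1 Cd38 copy was examined in Cd38+/- against Cd38+/+, where genotype and the library difference named above cannot be told apart either. None of the 9 genes was called, nor was any of the 11763 genes tested (0.0%). Cd38 itself was thus not called (log2 fold change -0.44, limma q = 0.226), although its libraries did not overlap. A gene that is not called in this comparison may therefore still differ. At an unadjusted limma p under 0.05 there were 2 of the 9 genes, Aplp2 and Psenen, against 13.5% of all genes tested, and the libraries did not overlap in 3 of the 9 genes, Aplp1, Aplp2 and Psenen, against 22.5%. The median log2 fold change was 0.09 over the 9 genes and 0.18 over all genes tested. The Cd38+/+ libraries here are the same as in the Cd38-/- comparison, so the values of the comparisons are not independent. With 3 libraries against 3 the exact permutation test cannot go below p = 0.1.

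Aplp2 was at 649.5, 482 and 555 TPM in the Cd38+/- libraries, all above the highest Cd38+/+ library. Its log2 fold change was 0.55 (95% interval 0.19 to 0.92, limma p = 0.00789, q = 0.177; exact permutation p = 0.1), beside 0.54 in Cd38-/-. Psenen was at 188, 265 and 251 TPM in the Cd38+/- libraries, all below the lowest Cd38+/+ library. Its log2 fold change was -0.57 (95% interval -0.99 to -0.15, limma p = 0.0139, q = 0.193; exact permutation p = 0.1), beside -0.47 in Cd38-/-. In a fit of all 12 libraries, in which the genotypes share an estimate of the spread, both passed in Cd38+/- (limma q = 0.0262 for Aplp2 and 0.0305 for Psenen). That fit called 1464 of 11763 genes in all. Its shared estimate may be too small for the Cd38+/+ libraries, whose median SD was 0.48, against 0.20 in Cd38+/- and 0.23 in Cd38-/-.

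Aplp1 was at 530.3, 616 and 526 TPM in the Cd38+/- libraries, all above the Cd38+/+ libraries (log2 fold change 0.29, 95% interval -0.04 to 0.62, limma q = 0.255). App was at 314, 155 and 165 TPM, and its highest value over the 12 libraries was that of Cd38+/- replicate 1. That library also held the highest level of choroid plexus markers: the 5 genes summed to 7293 TPM there, with 6537 TPM from Ttr, against 197 to 470 TPM in the other Cd38+/- libraries. The log2 fold change of App in Cd38+/- was 0.06 with this library and -0.27 without it (limma q = 0.591 and 0.703).

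Among the secretases, Bace1 was at 29.4, 19.6 and 22.8 TPM and Adam10 at 54.1, 36.8 and 38.4 TPM in the Cd38+/- libraries, with replicate 1 highest in both. Psen2 was at 29.6, 23.9 and 25.2 TPM, Ncstn at 113, 79.9 and 97.6 TPM and Aph1a at 64.5, 74.7 and 70.5 TPM. These 5 genes overlapped with the Cd38+/+ libraries, with log2 fold changes of -0.0017 for Bace1, 0.43 for Adam10, -0.38 for Psen2, 0.50 for Ncstn and 0.088 for Aph1a and limma q between 0.338 and 0.629.

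Whether the mutant genotypes differ from each other was asked in Cd38-/- against Cd38+/-, without the Cd38+/+ libraries. None of the 9 genes was called, against 0.0346% of the 11563 genes tested. At an unadjusted limma p under 0.05 there was 1 of the 9 genes, Aplp1, against 11.2% of all genes tested, and 0 of the 9 genes were without overlap, against 5.73%. The log2 fold change of Aplp1 was -0.26 (95% interval -0.51 to -0.01, limma p = 0.0416, q = 0.308; exact permutation p = 0.0714), with 1 Cd38-/- library, replicate 4 at 568 TPM, reaching into the Cd38+/- range. The difference between the mutant genotypes was -0.01 on the log2 scale for Aplp2 (95% interval -0.29 to 0.27) and 0.10 for Psenen (95% interval -0.19 to 0.39). The log2 fold changes of the other 6 genes lay between -0.30 for Bace1 and 0.06 for App, with limma q between 0.436 and 0.676.

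Ratios between genes within a library do not depend on how libraries are scaled, and 6 of them were compared in the 3 pairs of genotypes. None of the 18 two-sided exact permutation tests passed after Benjamini-Hochberg adjustment (smallest adjusted p = 0.107), and 3 had an unadjusted p under 0.05, all in Cd38-/- against Cd38+/+. The ratio of Aplp2 to App was 1.97, 1.83 and 2.15 in the Cd38+/+ libraries and 2.16 (lowest), 2.67 (median) and 3.03 (highest) in the Cd38-/- libraries. The genotypes did not overlap, although Cd38+/+ replicate 3 and Cd38-/- replicate 3 were next to each other (difference of log2 ratios 0.42, exact permutation p = 0.0119, adjusted p = 0.107). In the Cd38+/- libraries the ratio was 2.07, 3.12 and 3.37, the first within the Cd38+/+ range.

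The ratio of Psen2 to Ncstn was 0.43, 0.835 and 0.361 in Cd38+/+, 0.262, 0.299 and 0.259 in Cd38+/- and 0.235 (lowest), 0.249 (median) and 0.338 (highest) in Cd38-/- libraries. All 9 mutant libraries were below the 3 Cd38+/+ libraries. The difference of log2 ratios was -0.94 for Cd38-/- (exact permutation p = 0.0119, adjusted p = 0.107) and -0.89 for Cd38+/- (exact permutation p = 0.1, adjusted p = 0.3). Without Cd38+/+ replicate 2, in which Ncstn was lowest, the Cd38-/- difference was -0.58.

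The ratio of Bace1 to Adam10, the beta- to the alpha-secretase, was 0.521, 0.737 and 1.13 in Cd38+/+, 0.543, 0.532 and 0.592 in Cd38+/- and 0.415 (lowest), 0.498 (median) and 0.557 (highest) in Cd38-/- libraries. Cd38+/+ replicate 1 lay within the Cd38-/- range and the other Cd38+/+ libraries above it. The difference of log2 ratios was -0.62 for Cd38-/- (exact permutation p = 0.0238, adjusted p = 0.143) and -0.33 without Cd38+/+ replicate 3. The ratios of Aplp1 to App, Aph1a to Ncstn and Psenen to Ncstn overlapped in all pairs of genotypes, with adjusted p of 0.3 or above.

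**Figure D4:**
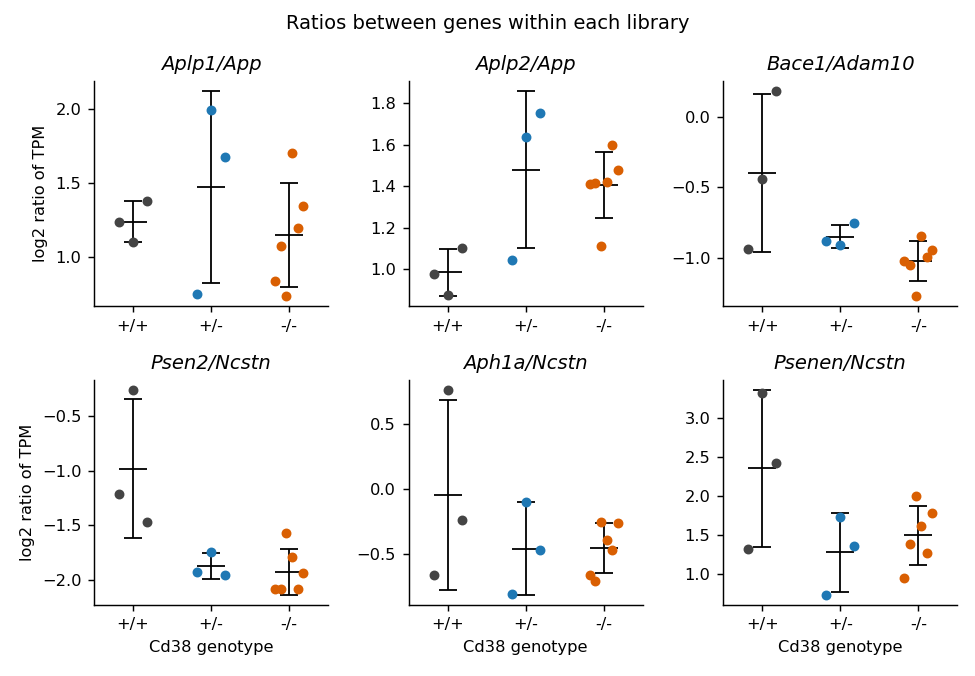
Log2 ratio of the TPM of gene pairs within each library (vertical axes, which do not start at 0) against Cd38 genotype. Each point is 1 library, ordered by replicate number, and the bars give the mean and SD (n = 3, 3 and 6). The Psen2/Ncstn points of both mutant genotypes lie below all Cd38+/+ points, and the Aplp2/App points of Cd38-/- lie above them.

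Other genes of precursor processing were taken as 102 genes in 5 lists. In Cd38-/- against Cd38+/+, 6 of the 89 genes tested were called, 4 higher and 2 lower, beside 8.28% of all genes tested, and their median log2 fold change was 0.15, as over all genes. None of 90 tested was called in Cd38+/- against Cd38+/+ (17 at an unadjusted limma p under 0.05, beside 13.5% of all genes) or in Cd38-/- against Cd38+/- (9 at that p, beside 11.2% of all genes). With Benjamini-Hochberg adjustment or library quality weights, none of the 6 was called in Cd38-/- against Cd38+/+.

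The adaptor and trafficking list, proteins that bind the tails printed above or carry the precursors between compartments, had 3 of 28 tested genes called. Snx27, a sorting nexin that returns cargo from endosomes to the cell surface, rose from 31.8 ± 3.80 TPM (SD, n = 3) to 51.8 ± 7.53 TPM (SD, n = 6; log2 fold change 0.68, limma q = 0.0312). Vps35, the core of the retromer coat that works with it, rose from 113 ± 10.3 to 151 ± 15.7 TPM (log2 fold change 0.41, limma q = 0.0492). Arf6, a small GTPase of membrane traffic at the cell surface, fell from 124 ± 13.5 to 88.6 ± 10.2 TPM (log2 fold change -0.48, limma q = 0.0434). With the length and GC trend removed, the log2 fold change was 0.32 for Snx27 (q = 0.0856) and 0.054 for Vps35 (q = 0.421), so both calls were lost, and Vps35 was also not called after median-ratio scaling (log2 fold change 0.30, q = 0.0801). Leaving out 1 library ended the call of Snx27 in 4 of 9 fits (Cd38-/- replicate 1, 2, 5 or 6), of Arf6 in 6 of 9 and of Vps35 in 7 of 9.

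Of the genes for peptide degradation and clearance, 1 of 15 tested was called: A2m, which encodes the protease inhibitor alpha-2-macroglobulin, was at 33.2 ± 4.90 TPM in Cd38+/+ and 57.4 ± 11.2 TPM in Cd38-/- libraries (log2 fold change 0.76, limma q = 0.0308). The value for A2m was 0.41 with the length and GC trend removed (q = 0.117), and the call was lost without Cd38-/- replicate 1, 2, 5 or 6. Of the other gamma-secretase substrates, 1 of 17 tested was called. This was Erbb4, a neuregulin receptor, at 11.9 ± 0.752 TPM in Cd38+/+, 34.2 ± 3.06 TPM in Cd38+/- and 26.0 ± 7.40 TPM in Cd38-/- libraries (log2 fold change 1.02 in Cd38-/-, limma q = 0.0322), and its call was lost without the same libraries as that of A2m. Of the 6 Notch target genes, Hes5, a transcriptional repressor, was lower in Cd38-/-, at 739.8 ± 173 TPM in Cd38+/+ and 461 ± 90.1 TPM in Cd38-/- libraries (log2 fold change -0.68, limma q = 0.0418). The other Notch targets were not called and went both ways (limma q between 0.148 and 0.312). Their log2 fold changes were 0.70 for Hey2, 0.24 for Hey1, -0.16 for Hes1, -0.25 for Heyl and -0.26 for Nrarp. The call of Hes5 was lost in 8 of 9 fits without 1 library (q between 0.0505 and 0.0815), remained only without Cd38+/+ replicate 2, and was lost with the length and GC trend removed (q = 0.0555) and without the eBayes trend (q = 0.0708). Among the 23 tested relatives and regulators of the secretases none was called; the most highly expressed were Itm2b and Itm2c, members of the BRI family that bind App, with log2 fold changes of 0.17 (limma q = 0.201) and 0.13 (limma q = 0.307) in Cd38-/-.

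**Figure D5:**
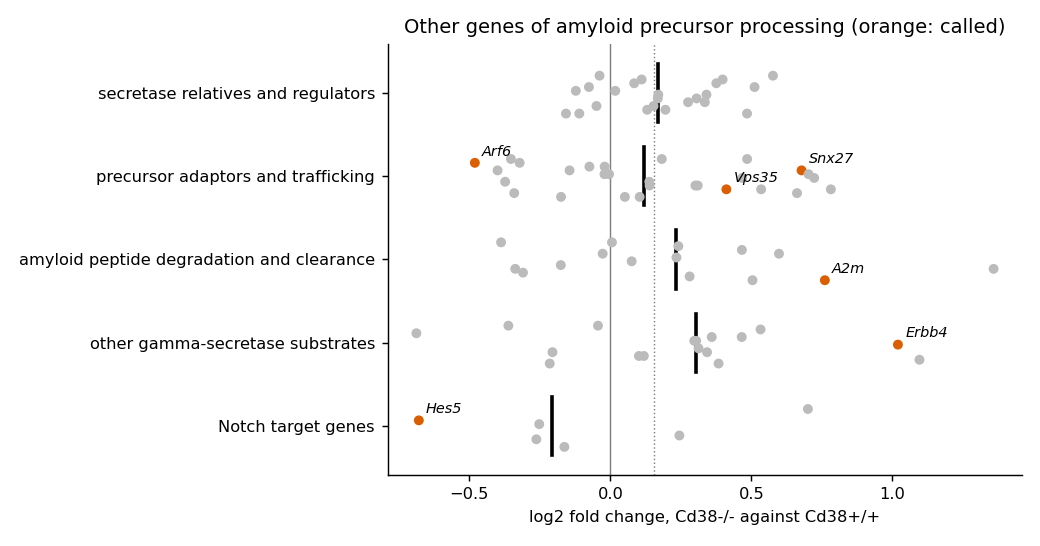
Log2 fold change in Cd38-/- against Cd38+/+ (horizontal axis) of the tested genes of 5 lists of precursor processing (vertical axis; the height within a list has no meaning). Orange points were called, black bars are list medians and the dotted line is the median of all genes tested (0.15). The 6 called genes are Snx27, Vps35, A2m and Erbb4 to the right of 0 and Arf6 and Hes5 to the left.

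Among the genes whose levels followed App most closely over the 12 libraries, of 11845 genes, were Cgnl1 (Pearson's r = 0.90, Spearman's rho = 0.846) and Prkcq (r = 0.877, rho = 0.839). They were picked from the highest of all genes, so no p is given. Without Cd38+/- replicate 1 and Cd38-/- replicate 1, the libraries farthest from the App median, r was 0.778 for Cgnl1 and 0.829 for Prkcq over 10 libraries. Of the other 8 genes of the family and its secretases, Adam10 followed App most closely (r = 0.683, and 0.402 over those 10 libraries), ahead of Aplp2 (r = 0.554, and 0.254). The libraries share their preparation and genotype groups, and r is a description of these 12 libraries.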

How the data were processed

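The deposited values are TPM per gene, which the authors computed with RSEM (1.2.28) after trimming with Trim Galore (0.6.4) and mapping to mm10 with STAR (2.7.1a), per the submitters' processing notes; the annotation and any use of strand are not given in the sources used here. Each of the 12 libraries had its own column and carried no read count, so depth is unknown. Genotypes came from the sample labels, which do not say how many mice gave a library, so p-values measure the spread between libraries.

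Genes with a mean above 5 TPM in at least 1 compared genotype were fitted as log2(TPM + 1) with limma 3.58.1 (eBayes with trend, R 4.3.3) on the libraries of the compared genotypes, and called with the thresholds of the study's methods, a q (here Storey's, over all genes tested) under 0.05 with a change of 1.2-fold or more. Fold changes on this scale understate changes of low genes. Each fit used a common spread per gene for the compared genotypes, although Cd38+/+ libraries varied more. The procedure was tested on simulated data. Ratios were compared with two-sided exact permutation tests. Positions, overlaps and sequences came from GENCODE vM21 (GRCm38), with the coding sequence taken as the longest open reading frame. Genes named are the 9 genes, Cd38, marker genes, the called genes of each pathway list (at most 4, or the 2 most expressed where none was called) and the 3 genes most like App, of which 1 is not reported here; others, such as the overlapping genes, were chosen after their values were seen. The members, lists and tests were chosen with earlier results of these data known.

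Other settings tried were a pseudocount of 0.1 or 5, no filter or a minimum of 1 TPM in all compared libraries, adjustment by Benjamini-Hochberg, eBayes without trend, quality weights per library (statmod 1.5.0), scaling by median ratios, quantile normalization, subtraction of the length and GC trend of each library, a fit of all 12 libraries, the replicate number as a block, a pseudocount for the ratios, and leaving out each library in turn.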

Additional observations from a re-analysis of the deposited data

How the results depend on the processing

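In Cd38-/- against Cd38+/+, 2 of the 9 genes and 6 pathway genes were called. With Benjamini-Hochberg adjustment 1 of the 9 genes (Aplp2) and 0 pathway genes were called, with eBayes without trend 0 of the 9, with library quality weights 0 and 0, and with the fit of all 12 libraries 10 pathway genes. Leaving out 1 library gave 0 to 3 of the 9 genes (0 without Cd38-/- replicate 1, 2, 5 or 6; 1 without Cd38+/+ replicate 2 or Cd38-/- replicate 3; 3 without Cd38+/+ replicate 1 or 3) and 0 to 15 pathway genes (0 without Cd38-/- replicate 1, 2, 5 or 6; 15 without Cd38+/+ replicate 3). Over all genes, 1829 of 11778 were called without Cd38+/+ replicate 1, 3119 of 11779 without Cd38+/+ replicate 3 and 1822 of 11722 with all 12 libraries. Calls over all genes fell to 112, 74, 93 and 154 without Cd38-/- replicate 1, 2, 5 and 6. Single calls lost in those fits were thus lost along with most others. In Cd38+/- against Cd38+/+, the fit of all 12 libraries called 2 of the 9 genes and 14 of 90 pathway genes, beside 1464 of 11763 genes in all. No filter called 6 of 102 pathway genes there, beside 663 of 17204 genes in all. In Cd38-/- against Cd38+/-, library quality weights called 1 of the 9 genes (App, log2 fold change 0.29, q = 0.0224) and 29 of 90 pathway genes, beside 3120 of 11563 genes in all. Leaving out a library gave 0 to 1 pathway genes (1 without Cd38-/- replicate 4, beside 93 of 11588 genes in all). The causes were not tested.

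Over all genes, the 970 called in Cd38-/- against Cd38+/+ became 326 with Benjamini-Hochberg adjustment, 2283 with no filter, 1822 with all 12 libraries, 1 with library quality weights and 74 to 3119 without 1 library. The 0 called in Cd38+/- against Cd38+/+ (1586 at an unadjusted p under 0.05) became 663 with no filter, 1464 with all 12 libraries, 30 with library quality weights, 9 without trend and 0 to 10 without 1 library, and the 4 in Cd38-/- against Cd38+/- became 3120 with library quality weights, 6 with a pseudocount of 5, 2 with the length and GC trend removed, 1 with median-ratio scaling or all 12 libraries and 0 to 93 without 1 library. Of the genes called in Cd38-/- against Cd38+/+, 77.5% were higher, against 59.9% after median-ratio scaling, 50.5% after quantile normalization and 30.9% without the length and GC trend; the median log2 fold change of all genes was 0.15, 0.04, 0.01 and -0.06.

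Reversals concerned values that were not called in the comparison concerned. With the length and GC trend removed, the log2 fold change in Cd38+/- against Cd38+/+ was -0.37 for App, -0.15 for Aph1a and -0.089 for Vps35, in Cd38-/- against Cd38+/+ -0.22 for App, -0.023 for Aplp1 and -0.055 for Adam10, and in Cd38-/- against Cd38+/- -0.12 for Psenen. With median-ratio scaling it was -0.073 for App and -0.041 for Aph1a in Cd38+/- and -0.085 for Aplp1 in Cd38-/-, both against Cd38+/+, and 0.011 for Aplp2 between the mutant genotypes. With library quality weights it was -0.22 for App in Cd38+/- against Cd38+/+ and 0.078 for A2m in Cd38-/- against Cd38+/-.

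Without 1 library, the log2 fold change in Cd38+/- against Cd38+/+ lay between -0.27 and 0.24 for App, -0.15 and 0.13 for Bace1, and -0.078 and 0.21 for Aph1a, and the log2 ratio of Aplp1 to App between -0.027 and 0.59. In Cd38-/- against Cd38+/+ it lay between -0.036 and 0.22 for App, -0.058 and 0.095 for Aplp1, and -0.20 and 0.087 for Aph1a. In Cd38-/- against Cd38+/- it lay between -0.12 and 0.39 for App, -0.12 and 0.099 for Aplp2, -0.24 and 0.035 for Adam10, -0.053 and 0.19 for Psenen, -0.25 and 0.027 for Snx27, and -0.031 and 0.18 for Vps35. Log2 ratios there lay between -0.29 and 0.063 (Aplp2 to App), -0.12 and 0.018 (Psen2 to Ncstn), -0.17 and 0.18 (Aph1a to Ncstn) and -0.048 and 0.45 (Psenen to Ncstn).

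Whether replicate numbers pair the libraries could not be settled with so few libraries. Deviations of equally numbered libraries correlated with r between -0.32 and 0.50. The libraries that correlated best with their own number were 4 of 6 in Cd38+/- against Cd38+/+, 0 of 6 in Cd38-/- against Cd38+/+ and 3 of 6 between the mutant genotypes. With the replicate block, 0 of the 9 genes, 0 pathway genes and 2 genes in all were called in Cd38-/- against Cd38+/+, 4 in all in Cd38+/- against Cd38+/+ and 2 between the mutant genotypes. The block put Aplp1 at -0.064 in Cd38-/- against Cd38+/+ and Aplp2 at 0.066 in Cd38-/- against Cd38+/-.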

Other observations

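Several members of this pathway have relatives of the same gene family, and these were looked at after their values had been seen. Whether the relatives replace the members in function was not tested. Bace2, the paralog of Bace1, was at 52.0 ± 16.8 TPM (SD, n = 3) in Cd38+/+, 32.8 ± 13.2 TPM (SD, n = 3) in Cd38+/- and 47.8 ± 14.6 TPM (SD, n = 6) in Cd38-/- libraries, with a mean of 45.1 TPM over all libraries against 21.6 TPM for Bace1. Adam9 and Adam17, other proteases with alpha-secretase activity, averaged 19.2 and 23.2 TPM over all libraries, against 38.4 TPM for Adam10. Aph1b and Aph1c, alternatives to Aph1a in the gamma-secretase complex, averaged 36.5 and 23.0 TPM against 66.3 TPM; they are similar in sequence, so their split is uncertain. None of these 5 genes was called in any comparison. Aph1c was at 20.4 ± 2.73 TPM (SD, n = 6) in Cd38-/- and 30.2 ± 1.29 TPM (SD, n = 3) in Cd38+/- libraries (log2 fold change -0.55, limma q = 0.139), and Adam9 at 20.4 ± 3.97 TPM in Cd38-/- and 14.0 ± 2.90 TPM (SD, n = 3) in Cd38+/+ libraries (log2 fold change 0.51, limma q = 0.126).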
